A study of Mus musculus with 19 samples.

Results

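Striatal transcripts of 10 genes that switch off G protein signalling were followed across 19 mice: the regulators of G protein signalling Rgs2, Rgs4, Rgs7, Rgs8, Rgs9, Rgs10, Rgs14, Rgs16 and Rgs20, and Gnb5, the G protein beta subunit that some of them need as a partner. The members were taken by gene symbol from the deposited comparison tables and by gene ID from the count files, and 10 of 10 were found among 49592 counted genes. All 10 passed the filter on low counts, so no member is missing from what follows. The mice were 4-month-old males that all carried D2RCre_floxCas9-EGFP, in which Cre made in dopamine D2 receptor cells switches on Cas9 and EGFP. The PFC_D2R-KO mice had received an AAV5 vector carrying D2 receptor guide RNAs together with mCherry in the medial prefrontal cortex, and the control mice AAV5 syn-mCherry there. Every library is 1 mouse. Each group was given daily saline for 5 days and then a challenge on day 9, of amphetamine at 3 mg/kg or of saline, which makes 4 amphetamine PFC_D2R-KO, 5 saline PFC_D2R-KO, 5 amphetamine control and 5 saline control mice. The tissue sequenced was the striatum, not the injected cortex, so the striatal counts do not show how far the prefrontal gene was cut, and the size of the virus-reached cell population was not analysed here. The labels give the time of killing, 90 min after the challenge, for amphetamine only. In the sample descriptions the amphetamine PFC_D2R-KO mice, here 1 to 4, are numbered 6, 8, 9 and 10. The name of the authors' comparison of this group marks it as made without the mouse missing from that run.

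A receptor activates a G protein by making its alpha subunit take up GTP, and an RGS protein ends the signal by speeding up the hydrolysis of that GTP. The family falls into subfamilies: Rgs2, Rgs4, Rgs8 and Rgs16 are small proteins of the R4 subfamily, Rgs7 and Rgs9 belong to the R7 subfamily, which is stable only when bound to Gnb5, Rgs10 and Rgs14 belong to R12, and Rgs20 belongs to RZ. In the striatum, where dopamine, opioid, adenosine and acetylcholine receptors act on the same projection neurons, Rgs9 is known as a regulator of D2 and opioid receptor signalling, and its abundance there is a hallmark of the tissue. Amphetamine releases dopamine, so the design asks whether these transcripts differ after the drug and whether the prefrontal guide RNAs alter that.

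Promoters are shown for 4 of the 5 members whose levels separated the amphetamine PFC_D2R-KO from the amphetamine control mice, to show the sequence at their annotated starts. They are from RefSeq on build GRCm38.p6, where 8 of 10 members had an entry (Rgs14 and Rgs20 had none), and run from 250 bases before to 50 bases after the annotated start, 5′ to 3′ on the strand of the gene. The windows are chr1:169747593-169747892 (minus strand) for Rgs4, chr1:144004100-144004399 (minus strand) for Rgs2, chr11:109298132-109298431 (minus strand) for Rgs9 and chr9:75306038-75306337 (plus strand) for Gnb5. Capitals mark TGACG, the core of the cyclic AMP response element, or its reverse complement CGTCA.
Rgs4: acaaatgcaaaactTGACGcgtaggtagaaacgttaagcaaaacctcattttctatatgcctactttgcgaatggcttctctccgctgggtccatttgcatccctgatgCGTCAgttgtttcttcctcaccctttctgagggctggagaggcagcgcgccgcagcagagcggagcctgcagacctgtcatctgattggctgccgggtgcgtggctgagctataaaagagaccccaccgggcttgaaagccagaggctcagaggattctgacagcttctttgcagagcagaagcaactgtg
Rgs2: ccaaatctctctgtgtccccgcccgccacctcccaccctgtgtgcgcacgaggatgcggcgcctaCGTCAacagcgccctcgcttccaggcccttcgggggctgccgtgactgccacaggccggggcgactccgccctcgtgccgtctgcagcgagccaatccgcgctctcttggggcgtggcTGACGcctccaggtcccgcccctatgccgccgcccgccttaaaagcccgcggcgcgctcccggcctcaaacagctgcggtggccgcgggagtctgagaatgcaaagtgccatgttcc
Rgs9: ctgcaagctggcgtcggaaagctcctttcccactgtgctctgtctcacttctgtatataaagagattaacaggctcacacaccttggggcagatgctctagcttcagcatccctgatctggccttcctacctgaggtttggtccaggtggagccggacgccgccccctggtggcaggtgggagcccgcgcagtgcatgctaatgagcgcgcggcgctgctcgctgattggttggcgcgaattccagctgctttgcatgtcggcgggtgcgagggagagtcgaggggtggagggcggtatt
Gnb5: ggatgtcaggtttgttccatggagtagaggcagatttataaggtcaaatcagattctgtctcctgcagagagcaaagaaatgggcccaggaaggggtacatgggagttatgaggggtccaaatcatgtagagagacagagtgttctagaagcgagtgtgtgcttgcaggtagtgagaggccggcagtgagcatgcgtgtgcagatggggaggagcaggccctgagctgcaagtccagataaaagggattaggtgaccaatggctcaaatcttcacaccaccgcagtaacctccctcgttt
Both strands were searched for the palindromic element TGACGTCA, for its core TGACG, which every palindrome also contains, and for TGANTCA, the binding motif of Fos and Jun. The core stood in Rgs4 at -236 on the gene's strand and at -141 on the other strand, and in Rgs2 at -67 on the gene's strand and at -185 on the other, counted from the start to the first base as printed. The first of the Rgs8 promoters held it once, at -46 on the other strand. Rgs9, Gnb5, Rgs7, Rgs10 and Rgs16 held none of the 3 motifs, and no member's promoter held TGACGTCA or TGANTCA. For Rgs9 and Rgs7, 0 transcripts were found to hold the bases after the annotated start, so no transcript sequence backs those starts here. Of 32851 promoters of the same 300-base length, 20.8% hold TGACG, 1.79% TGACGTCA and 7.81% TGANTCA, so a core match is common.

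The 19 libraries held between 57003408 and 85536346 counts each, and log2 levels of any pair of libraries correlated between 0.97 and 0.994 across genes. Member counts ran from 523 for Rgs16 in its lowest library to 39722 for Rgs4 in its highest. A set of 5 libraries stood apart in earlier results of these data: amphetamine PFC_D2R-KO mice 2 and 3, saline PFC_D2R-KO mouse 3, amphetamine control mouse 3 and saline control mouse 5. Defining markers of striatal projection neurons were present in every library, none of the 12 at 0, and their summed level ran from 1760.1 to 4405 CPM in amphetamine PFC_D2R-KO, from 2425 to 4122 in saline PFC_D2R-KO, from 4573 to 5881 in amphetamine control and from 3016 to 4314 in saline control mice. Every amphetamine control mouse thus lay above every mouse of the other 3 groups in projection neuron markers. In bulk tissue, fewer cells of a type and less RNA per cell cannot be told apart. Markers of neighbouring tissue differed too. The 8 pallidal and septal markers summed to 267 to 472 CPM in amphetamine PFC_D2R-KO against 127 to 291 CPM in amphetamine control mice. In the saline groups they summed to 334 to 496 CPM in PFC_D2R-KO and 257 to 407 CPM in control mice. By median the amphetamine control mice were the lowest group, at 254 CPM, and amphetamine PFC_D2R-KO mice, at 298 CPM, lay below both saline groups. The 7 choroid plexus markers reached 678 CPM in amphetamine PFC_D2R-KO mouse 2 against 26.7 to 67.8 CPM in the other 18 libraries. The summed level of 3 cholinergic interneuron markers was 17.4 CPM in amphetamine PFC_D2R-KO mouse 3 against 36.7 to 91.5 CPM elsewhere.

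Per transcript length, on the authors' FPKM scale, Rgs4 was the leading member, with 116 ± 31.5 FPKM (SD, n = 19) and 25.1% of the summed FPKM of the 10. Gnb5 followed with 92.6 ± 15.3 FPKM, above Rgs4 in 3 of the 19 mice. Rgs9 averaged 63.5 ± 19.7 FPKM and lay below Gnb5 in 19 of 19 mice. Rgs4, Gnb5 and Rgs9 therefore led the 10 members by mean, and the other RGS genes were not placed on this scale. Rgs9 lay above Rgs2 in 17 of 19 mice, and its rank ran from 3 to 7. Over the mice Rgs9 ran from 19.9 to 96.9 FPKM and Rgs4 from 60.3 to 170.4 FPKM. Rgs2, a regulator that favours Gq, averaged 44.9 ± 7.46 FPKM. Rgs10, best known from microglia, averaged 43.2 ± 9.29 FPKM. The order of this pair changed between mice, with Rgs2 above Rgs10 in 12 of 19. Rgs14, which also carries a domain that holds the inactive alpha subunit, averaged 25.7 ± 4.72 FPKM, Rgs8 23.3 ± 3.51, Rgs7 20.8 ± 2.35 and Rgs20, a regulator of Gz, 19 ± 3.37 FPKM. Neighbours in this run of 4 overlapped widely: Rgs14 exceeded Rgs8 in 12, Rgs8 exceeded Rgs7 in 15 and Rgs7 exceeded Rgs20 in 13 of 19 mice. Rgs16, an inducible member, was last in every mouse, at 5.63 ± 1.46 FPKM.

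**Figure D1:**
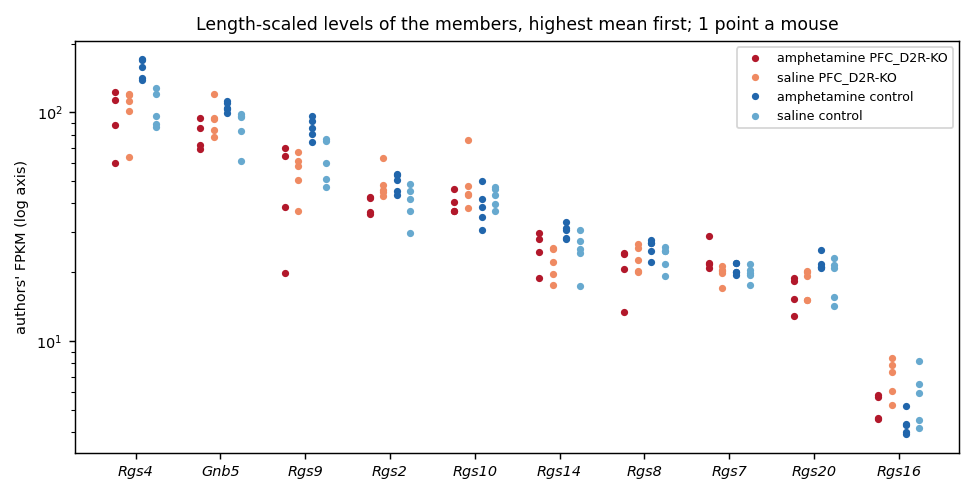
The authors' FPKM of each member (log axis), 1 point a mouse, coloured by group, members ordered by their mean over 19 mice. Rgs4, Gnb5 and Rgs9 lead with means of 116, 92.6 and 63.5 FPKM, and Rgs16 is last in every mouse.

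More members separated between genotypes under amphetamine than in the other 3 pairwise comparisons. Rgs4 averaged 283 ± 82.7 CPM in amphetamine PFC_D2R-KO mice (SD, n = 4) against 457 ± 45.2 CPM in amphetamine control mice (n = 5), and Rgs9 167 ± 80.7 against 297 ± 30.7 CPM. For 5 of the 10 members, Rgs2, Rgs4, Rgs9, Rgs20 and Gnb5, every amphetamine PFC_D2R-KO mouse lay below every amphetamine control mouse, a pattern shown by 3.71% of the 21513 genes tested. None was called over all genes: edgeR's quasi-likelihood test called 0 members at an adjusted p under 0.05, and 0.0% of all genes. DESeq2 and limma voom also called 0 members, and DESeq2 0.497% of its genes. At an unadjusted p under 0.05, 6 of 10 members were lower and 0 higher, where 5.34% of all genes were lower and 7.44% higher. The median member log2 fold change was -0.32, while the median of all genes was 0.0049. The projection neuron markers were lower too: 12 of 12 had an unadjusted p under 0.05, with a median log2 fold change of -0.76. Their part in the member values was not tested.

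Here and below CPM values are counts scaled to library size by TMM, which compare 1 gene between mice but not genes with each other. Rgs4, a regulator of Gi and Gq signalling that is abundant in brain (ENSMUSG00000038530.12, GRCm39 chromosome 1, 169569046 to 169575211), had 334, 177, 258 and 361 CPM in the amphetamine PFC_D2R-KO mice against 503, 415, 408, 461 and 500.2 CPM in the amphetamine control mice. The log2 fold change was -0.69 ± 0.194 (SE; edgeR adjusted p = 0.225, and 0.0556 in DESeq2, with a range over all alternatives from 0.0556 to 1.0). The groups were apart, with mouse 2 the lowest and mouse 4 the highest of the PFC_D2R-KO mice.

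Rgs9 (ENSMUSG00000020599.14, chromosome 11, 109116181 to 109188955) had 223, 134, 68.4 and 241 CPM in the amphetamine PFC_D2R-KO mice against 296, 257, 279, 316 and 336 CPM in the amphetamine control mice. Mice 2 and 3 of the PFC_D2R-KO group were far below the rest, and mice 1 and 4 were also below every amphetamine control mouse. The log2 fold change was -0.83 ± 0.268 (edgeR adjusted p = 0.237). The projection neuron markers of the same 4 mice summed to 3889.8, 2445, 1760.1 and 4405 CPM, the same order as Rgs9. Their part in the result was not tested.

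Gnb5 (ENSMUSG00000032192.10, chromosome 9, 75213570 to 75253158) had 181, 152, 145 and 199 CPM in the amphetamine PFC_D2R-KO mice against 237, 209, 220.3, 229.6 and 219 CPM in the amphetamine control mice, with a log2 fold change of -0.40 ± 0.136 (edgeR adjusted p = 0.255). Its other R7 client here, Rgs7 (ENSMUSG00000026527.14, chromosome 1, 174886653 to 175320066), did not share this order: it averaged 85.5 ± 12.9 CPM in amphetamine PFC_D2R-KO against 76.1 ± 4.14 CPM in amphetamine control mice, a log2 fold change of 0.17 ± 0.0894 (edgeR adjusted p = 0.448). The groups overlapped for Rgs7, and its highest value, 105 CPM, came from PFC_D2R-KO mouse 3, the mouse with the least Rgs9.

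Rgs2 (ENSMUSG00000026360.10, chromosome 1, 143875076 to 143879899) had 128, 111, 107 and 129 CPM in the amphetamine PFC_D2R-KO mice against 163, 136, 132, 153 and 161 CPM in the amphetamine control mice, a log2 fold change of -0.32 ± 0.130 (edgeR adjusted p = 0.303). Rgs20 (ENSMUSG00000002459.18, chromosome 1, 4979799 to 5140508) had 40.2, 27.3, 32.2 and 38.9 CPM in the amphetamine PFC_D2R-KO mice against 53.4, 44.6, 44.3, 45.8 and 45.1 CPM in the amphetamine control mice. Its log2 fold change was -0.43 ± 0.145 (edgeR adjusted p = 0.250). Both genes had separate groups with narrow gaps, for Rgs2 between 129 and 132 CPM. The span of Rgs20 overlaps Atp6v1h and Gm17101, that of Gnb5 overlaps Gm19531, and without a stated strand setting shared reads cannot be told apart.

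The remaining members overlapped between the amphetamine groups. Rgs8 (ENSMUSG00000042671.13, chromosome 1, 153528771 to 153576069, overlapping Gm29529) averaged 174 ± 43.8 CPM in amphetamine PFC_D2R-KO against 217 ± 19.3 CPM in amphetamine control mice, with its lowest value, 113 CPM, again in PFC_D2R-KO mouse 3, and a log2 fold change of -0.32 ± 0.142 (edgeR adjusted p = 0.362). Rgs14 (ENSMUSG00000052087.15, chromosome 13, 55517545 to 55532500) averaged 60 ± 11.3 against 71.8 ± 5.23 CPM (log2 fold change -0.26 ± 0.146). Rgs10 (ENSMUSG00000030844.12, chromosome 7, 127975345 to 128020482, overlapping Gm15503) averaged 35.4 ± 3.98 against 34.5 ± 6.63 CPM (0.04 ± 0.165). Rgs16 averaged 12.1 ± 1.52 against 10.2 ± 1.21 CPM (0.25 ± 0.171).

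These differences were smaller without the libraries that stood apart. Without all 5 of them, which leaves 2 amphetamine PFC_D2R-KO mice against 4 amphetamine control mice, the log2 fold change of Rgs4 was -0.43, of Rgs9 -0.38, of Rgs20 -0.26, of Rgs2 -0.25, of Gnb5 -0.24 and of Rgs8 -0.13 (edgeR adjusted p = 0.97 for each). Members lower at an unadjusted p under 0.05 then numbered 2 against 2.03% of all genes, and with cortical, ependymal, and pallidal and septal marker levels as covariates 2 against 1.34%. With those covariates Rgs4 stood at -0.51 and Rgs9 at -0.58 (edgeR adjusted p = 1.0 for both). The projection neuron markers were not among these covariates. Without the 5 libraries, 6 of 10 members had every remaining amphetamine PFC_D2R-KO mouse below every remaining amphetamine control mouse, as 8.5% of all genes did. Leaving out single libraries left 4 to 6 members lower at an unadjusted p under 0.05. For this and the later counts of members without 1 library, no share of all genes is given.

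**Figure D2:**
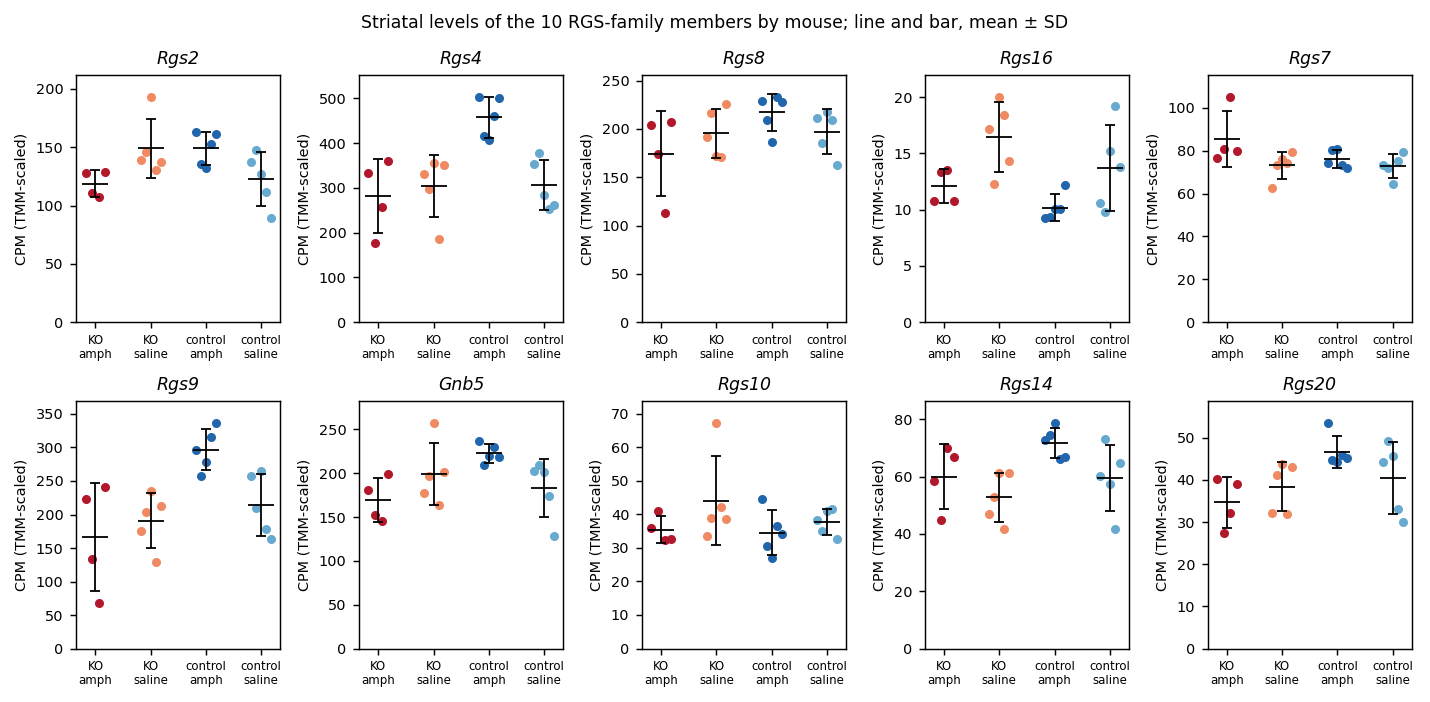
TMM-scaled CPM of each member by mouse, in the order amphetamine PFC_D2R-KO, saline PFC_D2R-KO, amphetamine control, saline control, with the line and bar at mean ± SD. In Rgs4 the amphetamine control mice, at 408 to 503 CPM, lie above all other mice, and in Rgs9 amphetamine PFC_D2R-KO mouse 3 is the lowest at 68.4 CPM.

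Amphetamine against saline in control mice asks what the drug does with prefrontal D2 receptors intact. Rgs4 averaged 457 ± 45.2 CPM in amphetamine control against 306 ± 56.2 CPM in saline control mice, and Rgs9 297 ± 30.7 against 215 ± 45.9 CPM. The authors' deposited table called Rgs4 (log2 fold change 0.58, SE 0.123, adjusted p = 0.000462) and Rgs9 (0.47, SE 0.138, adjusted p = 0.026) and none of the other 8 members, with 4.21% of its 18863 genes called. That table comes from DESeq2 on these groups. In the edgeR fit over all 19 mice 0 members and 0.00465% of all genes were called, in DESeq2 over the same mice 0 members and 0.936% of genes, and in limma voom 0 members. Of 10 members, 8 were above 0, with a median log2 fold change of 0.24, against -0.0074 for all genes. At an unadjusted p under 0.05, Rgs2, Rgs4 and Gnb5 were higher, where 4.89% of all genes were, and Rgs16 was lower, where 6.95% were. The 3 higher members became 1 without amphetamine control mouse 1, 4 or 5 or without saline control mouse 4 or 5, and the lower member became 0 without saline control mouse 4.

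By mouse, Rgs4 had 503, 415, 408, 461 and 500.2 CPM in the amphetamine control mice against 353, 378, 284, 254 and 261 CPM in the saline control mice. Every amphetamine value was above every saline value, as in 2.22% of all genes, and Gnb5 was the other member of which this held. The log2 fold change of Rgs4 was 0.58 ± 0.181, with an edgeR adjusted p of 0.218 in the fit over 4 groups and of 0.0522 when only the control mice entered the fit. Over the alternatives the edgeR, limma and DESeq2 adjusted p of Rgs4 ran from 0.0522 to 0.938, and its log2 fold change was 0.34 with the 3 marker covariates and 0.56 without the 5 libraries that stood apart.

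Rgs9 had 296, 257, 279, 316 and 336 CPM in the amphetamine control mice against 258, 209, 265, 178 and 163 CPM in the saline control mice. Only amphetamine control mouse 2 lay within the saline range. The log2 fold change was 0.47 ± 0.249 (edgeR adjusted p = 0.478, and 0.133 with the control mice alone). Gnb5 had 237, 209, 220.3, 229.6 and 219 CPM against 203, 209, 201, 174 and 129 CPM in the same order of groups, so that the lowest amphetamine and the highest saline value round to the same figure. Its log2 fold change was 0.28 ± 0.127 (edgeR adjusted p = 0.390). Rgs2 averaged 149 ± 14.3 against 123 ± 22.7 CPM (0.28 ± 0.122, edgeR adjusted p = 0.377), and here the groups overlapped.

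Rgs16 averaged 10.2 ± 1.21 CPM in amphetamine control against 13.7 ± 3.8 CPM in saline control mice, a log2 fold change of -0.43 ± 0.161 (edgeR adjusted p = 0.298), with overlapping groups. For the remaining members the log2 fold change of amphetamine against saline control mice was 0.27 ± 0.138 for Rgs14, 0.21 ± 0.136 for Rgs20, 0.14 ± 0.133 for Rgs8, 0.06 ± 0.0845 for Rgs7 and -0.12 ± 0.156 for Rgs10. That of Rgs10 was 0.25 with the 3 marker covariates, so its direction depended on them. The projection neuron markers of the same mice summed to 4573 to 5881 CPM in amphetamine control against 3016 to 4314 CPM in saline control mice, with 12 of 12 markers above 0 in log2 fold change and a median of 0.45. Their part in the values of Rgs4 and Rgs9 was not tested.

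For amphetamine against saline in PFC_D2R-KO mice, 2 of 10 members were above 0 and 8 below over all libraries, with a median log2 fold change of -0.18 against -0.0059 for all genes. This direction rested on the libraries that stood apart: without all 5 of them, which leaves 2 amphetamine against 4 saline PFC_D2R-KO mice, 7 members were above 0 and 3 below, with a median of 0.06. The edgeR test called 0 members and 0.00465% of all genes, and the authors' deposited table for these groups likewise called 0 of 10 members, with 0.665% of its genes called. DESeq2 over all mice called 0 members and 0.487% of genes, and limma voom 0 members. At an unadjusted p under 0.05, Rgs7 was higher, as 6.09% of all genes were, and Rgs2 and Rgs16 were lower, as 6.0% were. The higher member numbered 0 without amphetamine PFC_D2R-KO mouse 3 or saline PFC_D2R-KO mouse 1 and 2 without amphetamine PFC_D2R-KO mouse 2. The lower members numbered 1 without amphetamine PFC_D2R-KO mouse 1 or 3, and 0 without saline PFC_D2R-KO mouse 3. Without the 5 libraries Rgs7 stood at 0.10, Rgs2 at -0.11 and Rgs16 at -0.54. Rgs2 had 128, 111, 107 and 129 CPM in the amphetamine PFC_D2R-KO mice against 139, 146, 193, 130.1 and 137 CPM in the saline PFC_D2R-KO mice. Its groups did not overlap, as for 2.84% of all genes in this direction, although the gap between 129 and 130.1 CPM was narrow. The log2 fold change of Rgs2 was -0.33 ± 0.130 (edgeR adjusted p = 0.345).

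Rgs4 averaged 283 ± 82.7 CPM in amphetamine PFC_D2R-KO against 305 ± 69.5 CPM in saline PFC_D2R-KO mice, and Rgs9 167 ± 80.7 against 191 ± 40.9 CPM. The log2 fold changes were -0.11 ± 0.192 and -0.20 ± 0.264 (edgeR adjusted p = 0.838 and 0.782), with broad overlap in both. Neither direction held: Rgs4 stood at 0.06 without amphetamine PFC_D2R-KO mouse 2 and at 0.24 without the 5 libraries, and Rgs9 at 0.06 without amphetamine PFC_D2R-KO mouse 3 and at 0.36 without the 5. Rgs7 averaged 85.5 ± 12.9 against 73.2 ± 6.22 CPM (0.22 ± 0.0893), Gnb5 169 ± 25.4 against 199 ± 35.3 CPM (-0.24 ± 0.136) and Rgs10 35.4 ± 3.98 against 44.0 ± 13.3 CPM (-0.31 ± 0.165). The mean of Rgs10 in the saline PFC_D2R-KO mice carries mouse 3, at 67.1 CPM against 33.6 to 42.1 CPM in its 4 group mates.

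Under saline Rgs4, Rgs8 and Rgs7 were close between genotypes. PFC_D2R-KO mice averaged 305 ± 69.5 CPM of Rgs4 against 306 ± 56.2 CPM in controls, 195 ± 25.4 against 197 ± 22.7 CPM of Rgs8 and 73.2 ± 6.22 against 72.9 ± 5.44 CPM of Rgs7. Other members differed more: Rgs16 stood at 0.26 ± 0.16, Rgs10 at 0.23 ± 0.155 and Gnb5 at 0.12 ± 0.127 in log2 fold change. Rgs14 stood at -0.17 ± 0.138, Rgs9 at -0.17 ± 0.248 and Rgs20 at -0.08 ± 0.135, and the groups overlapped for each of these. Of 10 members 5 were above and 5 below 0, and the median log2 fold change was 0.000185. The edgeR test called 0 members and 0.0% of genes, and DESeq2 (0.0% of genes) and limma voom also called 0 members. Rgs2 alone had an unadjusted p under 0.05 and was higher, as 3.79% of all genes were, with 149 ± 25.0 CPM in saline PFC_D2R-KO against 123 ± 22.7 CPM in saline control mice (log2 fold change 0.28 ± 0.122, edgeR adjusted p = 0.614). Saline PFC_D2R-KO mouse 3, at 193 CPM against 130.1 to 146 CPM in its 4 group mates, carries part of that mean. Members higher at that level numbered 0 without this mouse or without saline control mouse 5, and 2 without saline PFC_D2R-KO mouse 2. Without the 5 libraries they numbered 0, where 2.49% of all genes were higher. Rgs2 then stood at 0.08, and 3 members were above and 7 below 0. In the authors' deposited table for these groups 0 members were called, with 0.00439% of its genes.

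**Figure D3:**
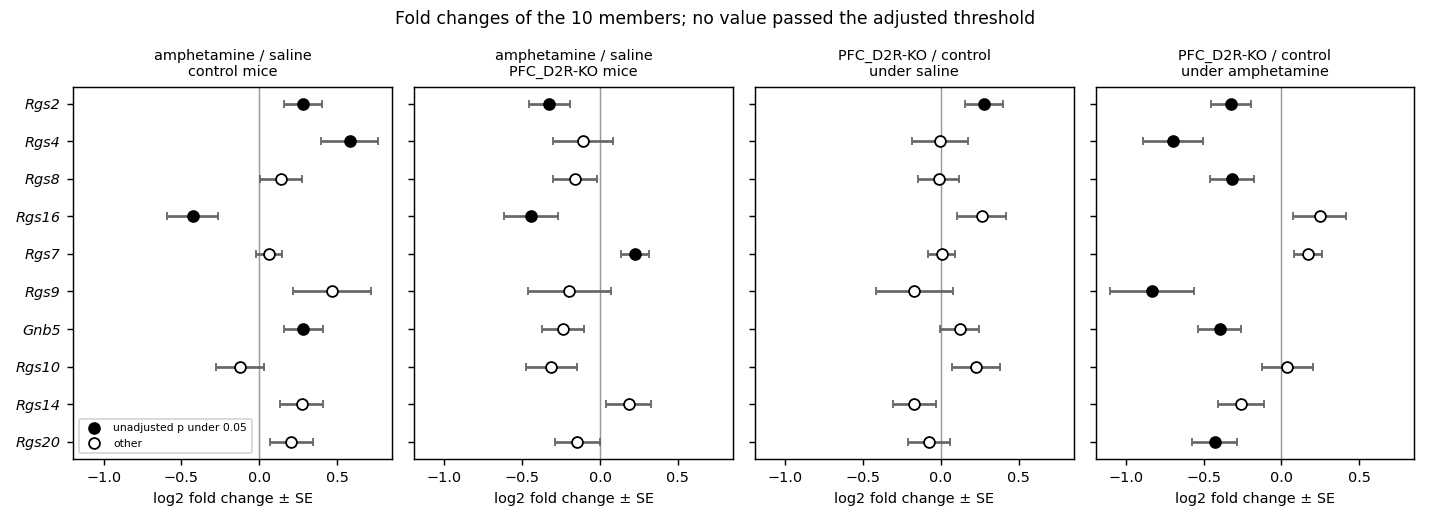
Log2 fold change ± SE of each member from edgeR in the 4 pairwise comparisons. Under amphetamine 7 of 10 members lie below 0 in PFC_D2R-KO against control mice, while amphetamine against saline has 8 of 10 above 0 in control mice and 8 of 10 below 0 in PFC_D2R-KO mice, where 3 of 10 are below 0 without the 5 libraries that stood apart.

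The difference between genotypes in the response to amphetamine was tested directly, as an interaction. Rgs2 had the smallest p, with a difference of -0.60 ± 0.179 in log2 fold change (unadjusted p = 0.0029, edgeR adjusted p = 0.519): its amphetamine response was -0.33 in PFC_D2R-KO and 0.28 in control mice. The difference was -0.69 ± 0.264 for Rgs4, -0.66 ± 0.363 for Rgs9 and -0.52 ± 0.186 for Gnb5 (edgeR adjusted p = 0.519, 0.565 and 0.519). Of 10 members 9 were below 0, Rgs7 being the exception, with a median of -0.33 against 0.0064 for all genes. Of the 12 projection neuron markers 12 were below 0, with a median of -0.75, and their part in the member values was not tested. No member was called by edgeR, DESeq2 or limma voom, edgeR called 0.0% of all genes and DESeq2 0.0828%, and 3 members were lower at an unadjusted p under 0.05 against 4.05% of all genes. Without the 5 libraries that stood apart the differences were -0.33 for Rgs2, -0.32 for Rgs4, -0.15 for Gnb5 and -0.04 for Rgs9, with a median of -0.08 over the 10 members. The 3 lower members became 5 without amphetamine PFC_D2R-KO mouse 1, with no share of all genes given. They became 1 without the 5 libraries, where 1.46% of all genes were lower. This comparison shares its mice with the pairwise ones, so the values are set side by side and not counted as separate evidence.

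Rgs16 was the member with the lowest p when the amphetamine response was averaged over genotypes. It had 10.8, 13.3, 13.5 and 10.8 CPM in the amphetamine PFC_D2R-KO mice against 17.2, 12.3, 20, 18.4 and 14.3 CPM in the saline PFC_D2R-KO mice. In controls it had 9.22, 9.31, 10.1, 10.1 and 12.2 CPM with amphetamine against 10.6, 9.76, 15.2, 19.2 and 13.8 CPM with saline. The amphetamine mean was the lower of each pair, and the groups of each pair overlapped. The log2 fold change was -0.44 ± 0.171 in PFC_D2R-KO and -0.43 ± 0.161 in control mice, and -0.44 ± 0.118 averaged over both, a ratio of 0.739. EdgeR gave the average an adjusted p of 0.119, with 0.149% of all genes called. DESeq2 gave it 0.0313, so Rgs16 was called by that test alone, which called 2.1% of all genes, and over the alternatives its adjusted p from edgeR, DESeq2 and limma ran from 0.0313 to 0.986. Rgs16 (ENSMUSG00000026475.8, chromosome 1, 153616095 to 153621214) overlaps Gm28513 in the annotation. The 11 cortical projection neuron markers were also unlike between treatments: their sum ran from 149 to 1250.4 CPM in amphetamine PFC_D2R-KO against 144 to 547 CPM in saline PFC_D2R-KO mice, and from 381 to 1017 CPM in amphetamine control against 119 to 621 CPM in saline control mice. Markers of other neighbouring tissue lay the other way: averaged over genotypes, 7 of 8 hypothalamic, 8 of 8 pallidal and septal and 7 of 7 ependymal markers were below 0 in log2 fold change, with medians of -1.06, -0.37 and -0.45. The hypothalamic markers summed to 4.98 to 26.1 CPM in amphetamine PFC_D2R-KO against 49.3 to 110 CPM in saline PFC_D2R-KO mice, and to 2.37 to 18.4 CPM in amphetamine control against 3.06 to 148 CPM in saline control mice. With cortical, ependymal, and pallidal and septal levels as covariates the average for Rgs16 was -0.27 (edgeR adjusted p = 0.986), and the part of the hypothalamic markers in it was not tested.

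In the same average, Rgs7 (0.14 ± 0.0615) and Rgs14 (0.23 ± 0.10) were higher at an unadjusted p under 0.05, as 6.69% of all genes were, and Rgs16 was lower, as 7.78% were. The 2 higher members became 0 with the marker covariates, where 2.67% of all genes were higher, Rgs7 stood at 0.08 and Rgs14 at 0.04. They became 3 without the 5 libraries, where 8.76% of all genes were higher. Without 1 library they became 0 without amphetamine PFC_D2R-KO mouse 3, saline PFC_D2R-KO mouse 1 or amphetamine control mouse 3, and 1 without amphetamine PFC_D2R-KO mouse 4, saline PFC_D2R-KO mouse 4 or saline control mouse 3 or 4. Averaged over treatments, PFC_D2R-KO against control mice gave log2 fold changes of -0.50 ± 0.182 for Rgs9, -0.35 ± 0.132 for Rgs4, -0.25 ± 0.099 for Rgs20, -0.21 ± 0.10 for Rgs14 and 0.25 ± 0.117 for Rgs16. These 5 had an unadjusted p under 0.05, with 5.1% of all genes lower and 6.54% higher, none was called (edgeR adjusted p from 0.345), and edgeR called 0.0% of all genes. DESeq2 called 0 members and 0.0607% of genes, and limma voom 0 members. With the marker covariates 0 members had an unadjusted p under 0.05, where 2.83% of all genes were lower and 2.83% higher. The 4 lower members became 2 without amphetamine PFC_D2R-KO mouse 2, and 12 of the 19 libraries, left out singly, took Rgs16 over 0.05.

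Some pairs of members also varied together among mice of the same group. How often other genes do so was not computed, so the counts of pairs have no share over all genes beside them. With group means removed, the 45 pairs had a median Pearson r of 0.267 over 19 mice, 29 of them above 0, and 11 with an adjusted p under 0.05 by a 2-sided permutation test within groups (Benjamini-Hochberg over all 65 relations computed). The closest pair was Rgs2 and Gnb5, with r = 0.916 (permutation p = 3e-05, adjusted 0.00098) and Spearman's rho = 0.863 (p = 7e-05, adjusted 0.0015). Without the 2 mice farthest from the median of Rgs2 r was 0.829. Rgs20 and Gnb5 had r = 0.858 (permutation p = 9e-05, adjusted 0.0015), rho = 0.889 (p = 4e-05, adjusted 0.0015), and 0.806 without the 2 farthest mice. Rgs8 and Rgs9 had r = 0.83 (permutation p = 0.0025, adjusted 0.015), rho = 0.746 (p = 0.004, adjusted 0.016) and 0.647 without the 2 farthest. Gnb5 thus paired closely with Rgs2 and Rgs20, which are not among its binding clients, as well as with Rgs9, at r = 0.731 (permutation p = 0.00058, adjusted 0.0047), rho = 0.849 (p = 0.00044, adjusted 0.0035) and 0.758 without the 2 farthest. With Rgs7 it had r = -0.326 (permutation p = 0.23, adjusted 0.36), rho = -0.34 (p = 0.21, adjusted 0.28) and -0.383 without the 2 farthest.

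**Figure D4:**
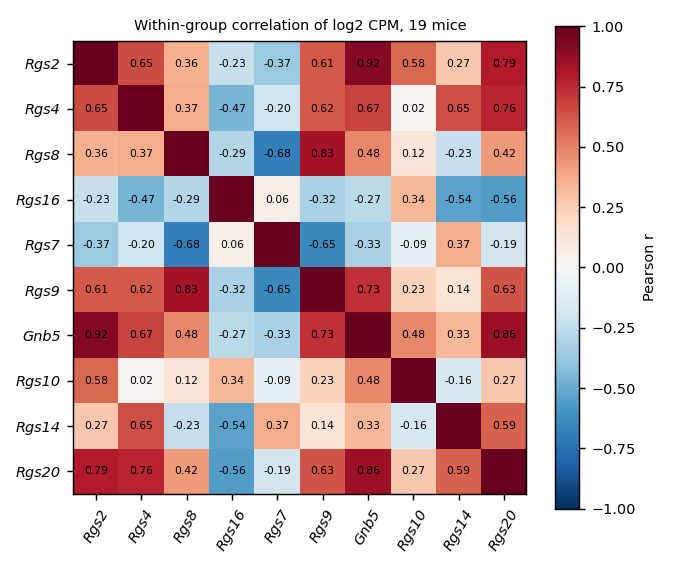
Pearson correlation of log2 CPM between members within groups (group means removed) over 19 mice. Rgs2, Rgs4, Rgs9, Rgs20 and Gnb5 form a block of positive values, with 0.92 for Rgs2 and Gnb5, while Rgs7 and Rgs16 are mostly negative.

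The level of the 12 projection neuron markers ran with several members inside groups. Rgs9 followed it most closely, with r = 0.964 (permutation p = 1e-05, the smallest 100000 permutations can give, adjusted 0.00065), rho = 0.935 (p = 5e-05, adjusted 0.0015) and r = 0.942 without the 2 mice farthest from the median. Rgs4 had r = 0.773 (permutation p = 0.0055, adjusted 0.026), rho = 0.851 (p = 0.00044, adjusted 0.0035), and 0.773 without the 2 farthest. Gnb5 had r = 0.747 (permutation p = 0.00028, adjusted 0.003), rho = 0.837 (p = 0.00036, adjusted 0.0035), and 0.839 without them. Rgs20 had r = 0.707 (permutation p = 0.0041, adjusted 0.021), rho = 0.779 (p = 0.0034, adjusted 0.015), and 0.703 without them. Rgs2 had r = 0.666 (permutation p = 0.0016, adjusted 0.01), rho = 0.805 (p = 0.00018, adjusted 0.0023), and 0.714 without them. For Rgs8 r was 0.776 (permutation p = 0.0032, adjusted 0.017), and 0.606 without them, but rho = 0.628 (p = 0.024, adjusted 0.078) did not pass the adjustment. Rgs7 ran the other way, with r = -0.621 (permutation p = 0.035, adjusted 0.099) rho = -0.491 (p = 0.063, adjusted 0.14) and -0.488 without the 2 farthest, which did not pass the adjustment. Rgs10 did not follow the projection neuron markers (r = 0.127, permutation p = 0.58, adjusted 0.64; rho = 0.172, p = 0.47, adjusted 0.53) and went against the 11 cortical markers, with r = -0.668 (permutation p = 0.00025, adjusted 0.003), rho = -0.779 (p = 0.00016, adjusted 0.0023) and -0.678 without the 2 farthest mice. Each pair of values comes from the same library and shares its scaling.

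**Figure D5:**
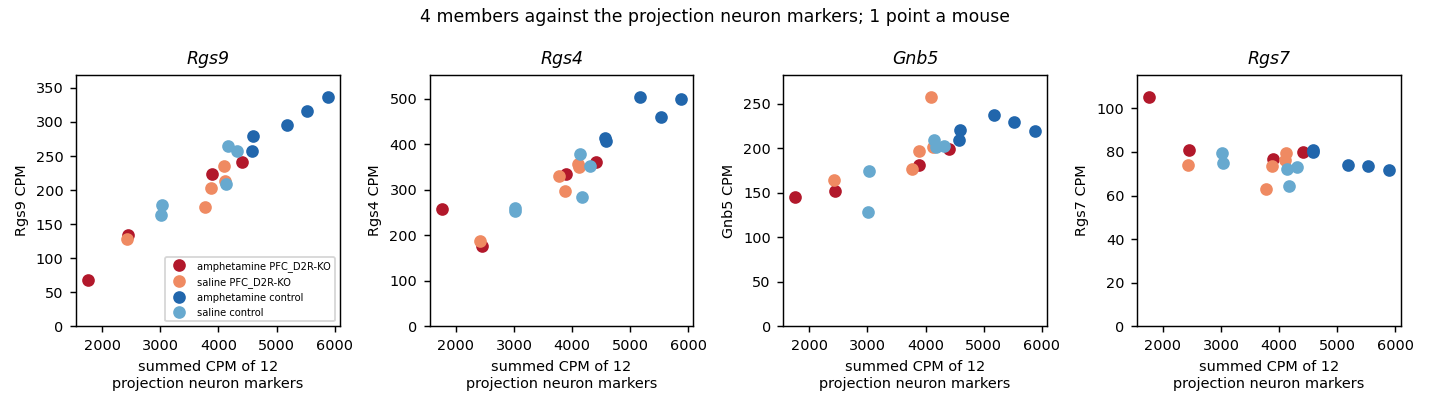
CPM of Rgs9, Rgs4, Gnb5 and Rgs7 against the summed CPM of 12 projection neuron markers, 1 point a mouse, coloured by group. Rgs9 climbs with the markers over all 19 mice, from 68.4 CPM at a marker sum of 1760.1 CPM, while Rgs7 does not.

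Among 15225 genes, the 3 whose log2 CPM was most like Rgs9 over the 19 libraries were Drd2 (r = 0.978), Pde1b (0.974) and Drd1 (0.973). Rgs4 was most like Ngef (0.948), Baiap2 (0.946) and Spata2l (0.932). Gnb5 was most like Gm2415 (0.959), Fam241a (0.943) and Rxrg (0.942), and Rgs2 like Tdrp (0.915), Gnb5 (0.907) and Eef1akmt1 (0.906). For Rgs8 the leading gene was Prima1 (0.952), followed by Cyp2s1 and Impa2; for Rgs14 Tamalin (0.946), then Wasf1 and Cdk5r1; for Rgs10 Sil1 (0.947), then Nbdy and Fnta. Rgs20 was led by Ier5 (0.926), before Ankrd63 and Mex3c, Rgs16 by Tmem106c (0.899), before Tmem176a and Tmem176b, and Rgs7 by Tmc6 (0.89), before Aqp11 and Ccdc74a. These r describe the libraries, group differences included, and carry no test.

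The partners of the family were read from fixed lists, and no gene of them was called in any of the 7 comparisons by edgeR. Of 4 R7 partners, Rgs7bp, which anchors R7 complexes at the membrane, averaged 329 ± 91.8 CPM in amphetamine PFC_D2R-KO, 298 ± 49.3 in saline PFC_D2R-KO, 461 ± 33.9 in amphetamine control and 314 ± 41.1 in saline control mice, with amphetamine control mice the highest group, as for Rgs4. Its log2 fold change was 0.55 ± 0.144 for amphetamine against saline in control mice (edgeR adjusted p = 0.173) and 0.35 ± 0.104 averaged over genotypes (0.146). In PFC_D2R-KO against control mice under amphetamine Rgs7bp stood at -0.49 ± 0.154 and Gpr158 at -0.32 ± 0.136 (edgeR adjusted p = 0.227 and 0.325). There 3 of the 4 partners were below 0 and 1, Gpr179, was above, at 0.77 ± 0.426. Gpr179, at 0.952 to 2.53 CPM in group means, stood at -1.13 ± 0.406 in the control pair (edgeR adjusted p = 0.282).

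Of 12 striatal receptors that signal through these G proteins, 11 were below 0 in amphetamine PFC_D2R-KO against amphetamine control mice, 5 of them lower at an unadjusted p under 0.05, where 5.34% of all genes were, with a median of -0.36. Drd2 averaged 85.4 ± 40.0 against 173 ± 25.6 CPM there (-1.02 ± 0.276, edgeR adjusted p = 0.223), and Drd1 119 ± 53.3 against 207 ± 22.0 CPM (-0.79 ± 0.245, edgeR adjusted p = 0.227). Drd2 is the gene the guides target in cortex; its striatal level does not test the cut. In the interaction of genotype and amphetamine Drd1 stood at -0.84 ± 0.333 and Adora2a, an adenosine receptor of projection neurons, at -0.96 ± 0.430 (edgeR adjusted p = 0.519 and 0.534). Drd2 stood at -0.63 ± 0.187 for PFC_D2R-KO against control averaged over treatments (edgeR adjusted p = 0.325). Cnr1, the cannabinoid receptor, was at 0.33 ± 0.120 for amphetamine against saline in PFC_D2R-KO mice, 0.42 ± 0.114 in control mice and 0.38 ± 0.083 averaged over both, where its edgeR adjusted p was 0.0662.

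Of the 14 G beta and gamma genes 7 were above and 7 below 0 in PFC_D2R-KO against control mice under amphetamine. At an unadjusted p under 0.05, 2 were higher and 1, Gng7, was lower, where 7.44% and 5.34% of all genes were. Gng7 averaged 539 ± 186 CPM in amphetamine PFC_D2R-KO against 788 ± 113 CPM in amphetamine control mice (-0.55 ± 0.194, edgeR adjusted p = 0.263). Gng2 averaged 220 ± 59.1 CPM in amphetamine PFC_D2R-KO against 143 ± 16.1 CPM in amphetamine control mice (0.62 ± 0.166, edgeR adjusted p = 0.220) and stood at 0.37 ± 0.114 averaged over treatments. Gng3 was at 0.28 ± 0.106 for PFC_D2R-KO against control under saline and 0.28 ± 0.0769 averaged over treatments (edgeR adjusted p = 0.614 and 0.325), and Gng10 at -0.42 ± 0.184 in the difference of responses (0.524). The 13 G alpha genes had 8 above and 5 below 0 in the same comparison, PFC_D2R-KO against control mice under amphetamine, with a median of 0.05. At an unadjusted p under 0.05, 3 of them were higher and 1, Gnal, was lower, at -0.42 ± 0.161 (edgeR adjusted p = 0.280). Of 12 other RGS genes 11 were tested, Rgs21 not. Rgs11, the remaining R7 regulator beside Rgs6, had 10.6 ± 0.62 CPM in saline PFC_D2R-KO against 14.6 ± 2.80 CPM in saline control mice (-0.45 ± 0.148, edgeR adjusted p = 0.614), Rgs19 stood at 0.24 ± 0.104 in the same comparison, and Rgs13, under 1 CPM in every group mean, at 1.41 ± 0.567 for amphetamine against saline in PFC_D2R-KO mice. Kcnj9, a subunit of the potassium channels that G beta gamma opens, stood at 0.47 ± 0.183 for amphetamine against saline in PFC_D2R-KO mice and 0.42 ± 0.126 averaged over genotypes (edgeR adjusted p = 0.338 and 0.148).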

How the data were processed

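RNA-seq gene counts from the striatum of 19 mice in 4 groups were used, grouped by the sample titles and treatment labels. Per the submitters' processing notes, HTSeq 0.6.1p2 was among the tools behind the deposited whole-number counts. The notes list, besides, STAR 2.6.0c, Trim Galore 0.5.0, FastQC 0.11.5, DESeq2 1.26.0s, R 3.6.1 and the build GRCm39. For the strand setting and annotation release, no source used here gives a value. The authors' deposited comparison tables hold FPKM values, log2 fold changes with standard errors, and p-values. Per the file headers they also hold the authors' DESeq2 mean signal per gene (baseMean) and a Wald score, of which neither enters a result. FPKM, with an unstated gene length, served to compare levels between genes. Rows that name no gene numbered 0.

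The main test was edgeR 4.0.16 in R 4.3.3 (quasi-likelihood, robust, TMM), fitted as 4 group means over all 19 libraries. filterByExpr kept 21513 of 49592 genes. P-values were adjusted by Benjamini-Hochberg over all genes within each of 7 comparisons, and called means an adjusted p under 0.05. Each standard error is the fold change over the root of F. Correlations used log2 CPM with a prior count of 2. The procedure was tested on simulated data. DESeq2 1.42.0 and limma 3.58.1 (voom) were alternatives, with other scaling, no filter, fewer samples, a replicate block, left-out libraries and marker covariates. Intervals from counting were not computed, since each member had at least 523 counts per library. The members, lists, markers and the 5 libraries left out together were chosen with earlier results of these data known. All 10 members are named. Of the lists, up to 3 genes with the lowest p in a comparison are named, and per member the 3 genes of highest r among genes with a mean of 1 CPM or more. Promoters came from RefSeq on GRCm38.p6, since the reference genome at hand was not of the files' build.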

Additional observations from a re-analysis of the deposited data

Results flagged for a closer look

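In 4 of 40 groups of mice tested, 1 mouse lay apart from its group by Dixon's criterion, which chance alone flags in about 1 in 20 groups. Saline PFC_D2R-KO mouse 3 had 193 CPM of Rgs2, with the next mouse of the group at 146, and 67.1 CPM of Rgs10, with the next at 42.1. Amphetamine PFC_D2R-KO mouse 3 had 105 CPM of Rgs7, with the next at 81.0. Amphetamine control mouse 1 had 53.4 CPM of Rgs20, with the next at 45.8.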

How the results depend on the processing

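Over 27 alternative settings, 1859 of 1860 values of a member in a comparison kept their side of the threshold. Of these 1860 values, none called in the main analysis, 77 had the other sign than the main value, 12 of them among the 70 without the 5 libraries that stood apart, and 0 where the main unadjusted p was under 0.05. The exception was Rgs16 in amphetamine against saline averaged over genotypes, at -0.43 with an adjusted p of 0.0313 in DESeq2, which makes 1 member called there. Counts over all genes moved far more. For amphetamine against saline in control mice edgeR called 1 gene, DESeq2 197, the fit to the control mice alone 75, the fit without the 5 libraries that stood apart 39 and that with marker covariates 0, and leaving out 1 library gave 0 to 6. In PFC_D2R-KO mice edgeR called 1, DESeq2 99, limma voom 3, the fit to those mice alone 0, the replicate block 5, the fit without the 5 libraries 2 and covariates 0, and leaving out 1 gave 0 to 29, the most without saline control mouse 5. PFC_D2R-KO against control under amphetamine gave 0 in edgeR, 101 in DESeq2 and 1 without the 5 libraries. For amphetamine averaged over genotypes edgeR called 32, DESeq2 442, the replicate block 18, the fit without the 5 libraries 470 and covariates 0, and leaving out 1 gave 3 to 269, with 269 without saline control mouse 5 and 220 without amphetamine PFC_D2R-KO mouse 2. DESeq2 called 11 genes for the genotype averaged over treatments and 15 for the difference of responses, where edgeR called 0. The cause was not tested. Members higher in amphetamine control against saline control mice at an unadjusted p under 0.05 numbered 3, where 4.89% of all genes were higher. They numbered 4 without the 5 libraries, against 7.2% of all genes, and 1 with covariates, against 1.99%. In the fit to the control mice alone they numbered 5, and without 1 library 1 to 4, with no share of all genes given here. These counts were tried after seeing the data. Replicate numbers did not pair the samples: 27 same-numbered pairs had correlations of deviations from -0.349 to 0.154, 1 pair over 0.1, and 2 libraries correlated best with their own number. A fit to the compared groups alone was not run for the averages and the difference of responses, which use all 4 groups.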
